A study of Bos taurus with 12 samples.

Results

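The change of the endometrium between day 7 and day 14 of the oestrous cycle was examined in heifers that did not become pregnant when an embryo was transferred in the following cycle. The 6 arrays of this outcome, of 12 in the study, were chosen by their titles: 3 of NPd7 and 3 of NPd14. All biopsies came from Simmental heifers and were taken during the cycle before the transfer, so no embryo of the transfer was present. NP heifers came back to heat at day 21, and CD heifers carried to calf delivery. Each NP or CD group has 3 pools, each on 1 Affymetrix bovine array. The labels give neither the number of heifers in a pool nor whether the same heifers were sampled on both days, so every p-value measures the spread between pools and no more. The deposited values are log2 expression values made with GCRMA, a method that corrects for background and normalizes between arrays, and differences below are on that log2 scale, where 1 is a 2-fold difference.

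In the luteal phase the corpus luteum secretes progesterone, which turns the endometrium from a growing into a secreting tissue. Its surface and glandular epithelium then release histotroph, the mixture of proteins, sugars and amino acids on which a cattle embryo lives before it attaches. Day 7 lies in the early part of this phase, and day 14 in its later part, when the conceptus would elongate.

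Of 24016 probe sets that were not array controls, 13449 had log2 above 4 on at least 3 of the 12 arrays, and these stood for 6781 genes. The share of all probe sets above 4 lay between 54.1% and 54.7% on every array. Correlations between arrays were 0.968 to 0.988 within NPd7 and 0.921 to 0.97 within NPd14. The NPd14 pools were thus the least alike, with pools 2 and 3 the farthest apart, and 359 genes had an SD above 1 in NPd14 against 153 in NPd7. Because of this, values of single pools come first below, and results are given with and without NPd14 pools 2 and 3. Epithelial markers were present, with 19 of 26 listed genes measured. The muscle genes ACTA2, MYH11, DES and CNN1, the endothelial genes PECAM1, VWF and CDH5 and the haemoglobin genes HBB and HBA had no probe set above the filter, and their highest value on any array was 3.35. The epithelial keratin KRT8 was also under the filter, at 1.60 to 1.70, as were the progesterone receptor PGR at 2.11 to 2.16 and the oestrogen receptor ESR1 at 1.59 to 1.63, so a gene under the filter is not shown to be absent from the tissue.

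Few probe sets passed the test between the days. With limma across all 12 arrays and Benjamini-Hochberg adjustment over 13449 probe sets, 44 passed at adjusted p under 0.05, which is 0.327% of those tested. Of these, 37 rose (0.275%) and 7 fell (0.052%). Without adjustment, 2196 (16.3%) had p under 0.05. Taken by gene, with the adjustment still over the 13449 probe sets, 9 passed (0.133%), of which 4 rose (0.059%) and 5 fell (0.0737%). By gene 1116 (16.5%) had an unadjusted p under 0.05. With the fit and adjustment over the 6781 genes instead, 1 passed, and it rose. Among the 44, 9 had passed the filter on low values only through the NPd14 arrays and 1 only through the NPd7 arrays. Over all 13449 probe sets kept, 190 and 118 had done so. For such probe sets the filter itself favoured a difference in that direction. In all 44 the NP pools of the days did not overlap, as held upward for 9.88% and downward for 11.7% of all probe sets. The pool numbers were taken to pair the NP pools, and with the pool number as a replicate block over all 12 arrays 21 probe sets passed, of which 18 were among the 44. With a block within each outcome none passed, with 2685 at an unadjusted p under 0.05. With only the 6 NP arrays in the fit none passed either, with 1884 at an unadjusted p under 0.05. None of these fits can change the NP difference itself, so the same direction of the 44 probe sets in them was fixed in advance.

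The 4 genes that rose have different textbook roles. LARS2, the leucyl-tRNA synthetase of mitochondria, stood at 4.91, 4.69 and 5.42 in NPd7 pools 1, 2 and 3 and at 6.82, 6.16 and 7.29 in NPd14. It rose by 1.75 ± 0.29 (SE, 3 pools a day, limma adjusted p = 0.0456). CCNL1, a cyclin that acts in transcription and splicing, stood at 6.78, 6.77 and 7.15 at day 7 and at 8.43, 7.77 and 7.99 at day 14, a rise of 1.16 ± 0.17 (limma adjusted p = 0.0395). The lowest day 14 pool of either gene lay above the highest day 7 pool.

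SLC7A1, the CAT-1 transporter that carries arginine and lysine into cells, stood at 6.97, 6.70 and 6.98 at day 7 and at 7.78, 8.14 and 7.74 at day 14. It rose by 1.0 ± 0.15 (limma adjusted p = 0.0395), and the 3 pools of each day lay close together. GPALPP1, a gene of little known function, stood at 3.70, 3.68 and 3.88 at day 7 and at 4.57, 4.93 and 5.01 at day 14. The rise was 1.08 ± 0.13 (limma adjusted p = 0.0136). GPALPP1 was above the filter level of 4 on the 3 NPd14 arrays and on no other array, so it was tested only through the group where it was high, and its rise is in part set by the filter.

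The 5 genes that fell have unrelated textbook roles. CDK5, a kinase best known from neurons, stood at 7.39, 6.78 and 6.89 at day 7 and at 5.86, 5.85 and 6.02 at day 14, so it fell by 1.11 on the log2 scale (SE 0.18, limma adjusted p = 0.0456). GNG11, a gamma subunit of heterotrimeric G proteins, was among the brightest genes, at 12.97, 12.74 and 12.44 at day 7 and 11.72, 11.84 and 11.41 at day 14, and fell by 1.06 (SE 0.17, limma adjusted p = 0.0456). PMF1, a kinetochore protein of the MIS12 complex, went from 8.14, 7.86 and 7.90 to 6.99, 7.11 and 7.05. Its fall was 0.91 in size (−0.91 ± 0.15, limma adjusted p = 0.0456).

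PAGR1, a protein that works with the KMT2 histone methyltransferases, stood at 9.09, 8.70 and 9.04 at day 7 and at 8.14, 8.24 and 8.18 at day 14 (−0.76 ± 0.12, limma adjusted p = 0.0456). AP4M1, a subunit of the AP-4 adaptor complex that sorts cargo at the trans-Golgi, stood at 8.64, 8.68 and 8.65 at day 7 and at 8.05, 8.05 and 7.90 at day 14 (−0.66 ± 0.11, limma adjusted p = 0.0456). In these 5 genes too, no day 14 pool reached the lowest day 7 pool.

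Most of these 9 calls depended on the fit. With the pool number as a replicate block, GPALPP1 and GNG11 passed (limma adjusted p = 0.0362 for each), and the other 7 genes had adjusted p between 0.0619 for CCNL1 and SLC7A1 and 0.0746 for CDK5, with LARS2, PMF1 and AP4M1 at 0.0718 and PAGR1 at 0.0740. With the block within each outcome no gene passed, and the smallest of the 9 was 0.0621. Without NPd14 pool 1 GPALPP1 passed (limma adjusted p = 0.0109), while CCNL1, SLC7A1, GNG11, AP4M1, LARS2, PAGR1, CDK5 and PMF1 did not, at 0.0936, 0.0945, 0.136, 0.144, 0.167, 0.167, 0.168 and 0.171. Without NPd14 pool 2 CDK5 did not pass (limma adjusted p = 0.0529), and without NPd14 pool 3 all 9 passed.

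**Figure D1:**
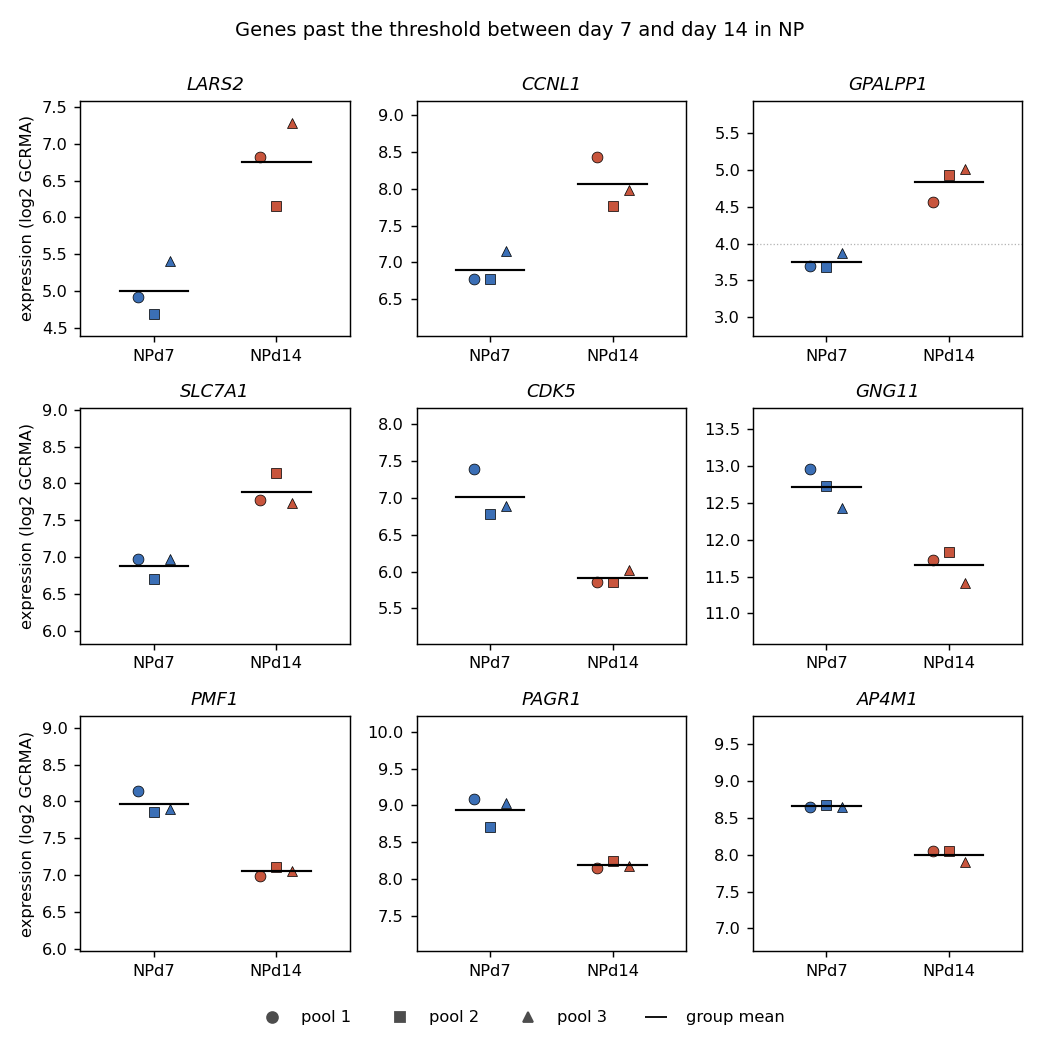
Log2 GCRMA expression of the 9 genes past the threshold in each of the 3 NPd7 (blue) and 3 NPd14 (red) pools, with marker shape for the pool and a line for the group mean. The panels share a span of 3.2 log2 units but start at different levels, the dotted line in the GPALPP1 panel marks the filter level of 4, and in every panel the pools of the 2 days do not overlap.

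A further 6 genes had a probe set among the 44 that was not the brightest probe set of its gene. That of RIOK3, an atypical kinase, stood at 5.22, 5.20 and 5.19 at day 7 and at 6.59, 6.52 and 6.40 at day 14 (1.30 ± 0.14, limma adjusted p = 0.00883). The brighter probe set of RIOK3 gave −0.14 ± 0.22 (limma adjusted p = 0.801), so the probe sets of this gene disagree. It gave −0.31 with the 3' to 5' score as covariate, a score of control transcripts described below. For SLC25A12, a mitochondrial aspartate-glutamate carrier, the probe set that passed gave 1.48 (limma adjusted p = 0.0129) and the brighter probe set 0.31 (limma adjusted p = 0.716). The probe sets of SLC25A12 and ADAM9 that passed were above the filter level only on the NPd14 arrays, and that of MYLK passed the filter only through the NPd7 arrays. The probe sets of ADAM9, ANKRD22 and TTC14 that passed gave 1.45, 0.90 and 0.90, and the brighter ones 0.60, 1.0 and 0.41, the same direction without passing. With that score the brighter probe sets of SLC25A12 and TTC14 gave 0.71 and 0.22. MYLK, the kinase of myosin light chain, was at −1.99 in the probe set that passed and at −1.70 in the brighter one.

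Most of the probe sets that passed carry no gene name. In all, 29 of the 44 (65.9%) are not listed in the platform annotation used here, against 38.3% of all probe sets kept, and 28 of these 29 rose. The probe set with the smallest adjusted p was Bt.18646.1.A1_at, at 4.50, 4.57 and 4.28 at day 7 and 6.15, 6.20 and 6.44 at day 14 (1.81 ± 0.14, limma adjusted p = 0.00147). Bt.11864.1.A1_at, which passed the filter only through the NPd14 arrays, had 2.45, 2.42 and 3.21 at day 7 and 5.09, 5.10 and 4.77 at day 14 (2.29 ± 0.23, limma adjusted p = 0.00852). The unnamed probe set that fell, Bt.9848.1.A1_a_at, went from 10.33, 10.47 and 10.33 to 9.75, 9.56 and 9.63 (−0.73 ± 0.11, limma adjusted p = 0.0395).

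A 3' to 5' score of control transcripts, used here as a measure of RNA integrity, moved with the day. For the array's control transcripts that come from the sample, the 3' probe sets exceeded the 5' probe sets by 1.94 ± 0.19 in NPd7 and by 2.32 ± 0.17 (SD, n = 3) in NPd14, with all 3 day 14 pools above all 3 day 7 pools (exact permutation test, two-sided, p = 0.1, the smallest that 3 against 3 allows). For the control transcripts added to the sample the values were 5.06 ± 0.15 and 5.38 ± 0.14 (SD, n = 3, exact permutation p = 0.2). The added transcripts, which are not from the tissue, thus moved by 0.32, beside 0.38 for those from the sample. What part RNA integrity had in this score was not tested. With this score as a covariate no probe set passed, with 963 at an unadjusted p under 0.05, and all 44 had the same direction. Over all genes the median SE rose from 0.19 to 0.26 with the covariate. For named genes whose difference it moved by over 1.5 times, the value with the covariate stands where they are described.

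The largest differences between the days belonged to genes that did not pass and in which the NPd14 pools disagreed. SLC39A2, a zinc importer, stood at 2.42, 5.58 and 3.02 in NPd7 pools 1, 2 and 3 and at 12.97, 13.26 and 5.49 in NPd14. NPd14 pools 1 and 2 were thus level with the CDd14 pools, which spanned 12.21 to 13.20, while pool 3 lay within the range of day 7. That range reached up to it only through NPd7 pool 2. Taken by pool number, the differences of SLC39A2 were 10.54, 7.68 and 2.48 in pools 1, 2 and 3. The difference was 6.90 ± 1.74 (limma adjusted p = 0.125) with all pools and 9.44 without NPd14 pool 3 (limma adjusted p = 0.0026). Without pool 1 or pool 2 it was 5.70 and 5.56 (limma adjusted p = 0.327 and 0.148). The pool left out here and below was picked with its values in view, so the smaller p is a description and no support. The NPd7 pool of the same number stayed in the fit.

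Other genes of secretion and nutrient supply had the same layout of pools. SERPINA14, the uterine milk serpin, stood at 3.49, 3.43 and 3.67 at day 7 and at 8.25, 9.05 and 3.48 at day 14. IGFBP1, which binds insulin-like growth factors, stood at 2.25, 2.23 and 2.17 and then at 6.23, 9.50 and 2.19. SLC5A1, the sodium-coupled glucose transporter, stood at 7.41, 9.27 and 7.27 and then at 12.02, 12.95 and 8.61. In each of these genes NPd14 pools 1 and 2 lay above every day 7 pool and pool 3 lay among them. Taken by pool number, pool 3 differed by −0.19 in SERPINA14, 0.02 in IGFBP1 and 1.34 in SLC5A1. With all pools their limma adjusted p was 0.255, 0.243 and 0.187, and without NPd14 pool 3 it was 0.0356, 0.0304 and 0.0299, with differences of 5.12, 5.65 and 4.50. Without pool 1 or pool 2 none of the 3 passed (limma adjusted p from 0.267 to 0.509).

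PTGS2, the cyclooxygenase that starts prostaglandin synthesis, stood at 2.17, 8.77 and 3.25 at day 7 and at 11.23, 11.58 and 1.80 at day 14. MSTN, the TGF-beta family member myostatin, stood at 3.39, 8.38 and 3.23 and then at 10.15, 9.78 and 3.30. On these probe sets both genes were high in pool 2 on both days and low in pool 3 on both days. Neither passed with or without NPd14 pool 3 (limma adjusted p without it 0.107 and 0.17). A second, dimmer probe set of PTGS2 stood at 2.42, 2.50 and 2.36 at day 7 and at 7.59, 7.59 and 2.41 at day 14. On that probe set pool 2 was thus not high at day 7. With the 3' to 5' score as covariate the difference of MSTN went from 2.75 to 4.34. HSD11B1, which converts cortisone to cortisol, stood at 4.70, 6.07 and 3.79 at day 7 and at 5.84, 8.63 and 3.52 at day 14 (1.14 ± 1.28, limma adjusted p = 0.704), and gave 3.50 with the score as covariate. OXTR, the oxytocin receptor of luteolysis, stood at 10.03, 11.08 and 9.71 at day 7 and at 9.43, 10.72 and 9.75 at day 14, where the days overlapped (−0.30 ± 0.43, limma adjusted p = 0.778), and the difference turned to 0.18 with the score as covariate.

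A different NPd14 pool, pool 2, stood apart from the other NPd14 pools for genes that were high at day 7. For each gene named here and in the next paragraph, NPd7 pool 2 was the highest day 7 pool. NPd14 pool 2 lay below NPd7 pool 2 in each of them. EDN3, an endothelin peptide, stood at 10.37, 11.50 and 9.59 in NPd7 and at 4.80, 10.08 and 2.66 in NPd14, so pool 2 lay within the day 7 range while pools 1 and 3 lay on either side of the CDd14 range of 3.96 to 4.26. The difference was −4.64 ± 1.45 (limma adjusted p = 0.18), and −6.76 without NPd14 pool 2 (limma adjusted p = 0.00441). The latter fit keeps NPd7 pool 2, the highest day 7 pool, which makes the fall larger. Taken by pool number, the differences of EDN3 were −5.57, −1.41 and −6.93 in pools 1, 2 and 3. Without pool 1 or pool 3 the adjusted p of EDN3 was 0.413 and 0.281, and with the 3' to 5' score as covariate its difference was −2.42. SPC24, a kinetochore subunit of the NDC80 complex, stood at 10.92, 12.32 and 11.33 and then at 6.61, 10.93 and 6.80. SPC24 gave −3.41 ± 0.97 (limma adjusted p = 0.159), and −4.81 without NPd14 pool 2 (limma adjusted p = 0.00355). Without NPd14 pool 1 or pool 3 the adjusted p was 0.376 and 0.248. Taken by pool number, its differences were −4.30, −1.39 and −4.53.

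PRODH and PHGDH, which break down proline and make serine, had this layout too. PRODH stood at 8.92, 10.45 and 8.48 and then at 6.07, 8.94 and 6.24, and PHGDH stood at 11.42, 12.56 and 10.93 and then at 9.08, 11.45 and 8.36. Without NPd14 pool 2 both had a limma adjusted p of 0.0459, with differences of −3.13 and −2.91, while without pool 1 or pool 3 it lay between 0.349 and 0.476. The mitotic cyclin CCNB1 stood at 10.38, 11.54 and 8.90 at day 7 and at 7.46, 10.10 and 5.63 at day 14, and did not pass without that pool (−3.73, limma adjusted p = 0.0513). LPL, lipoprotein lipase, stood at 9.84, 11.74 and 8.67 at day 7 and at 6.83, 9.90 and 8.48 at day 14 (−1.68 ± 0.91, limma adjusted p = 0.386), where NPd14 pool 2 lay among the day 7 pools and pool 3 just under them. With the 3' to 5' score as covariate the differences of PRODH, PHGDH, CCNB1 and LPL were −1.19, −1.16, −0.99 and −0.97. PRODH, PHGDH and CCNB1 were named after their values were seen.

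**Figure D2:**
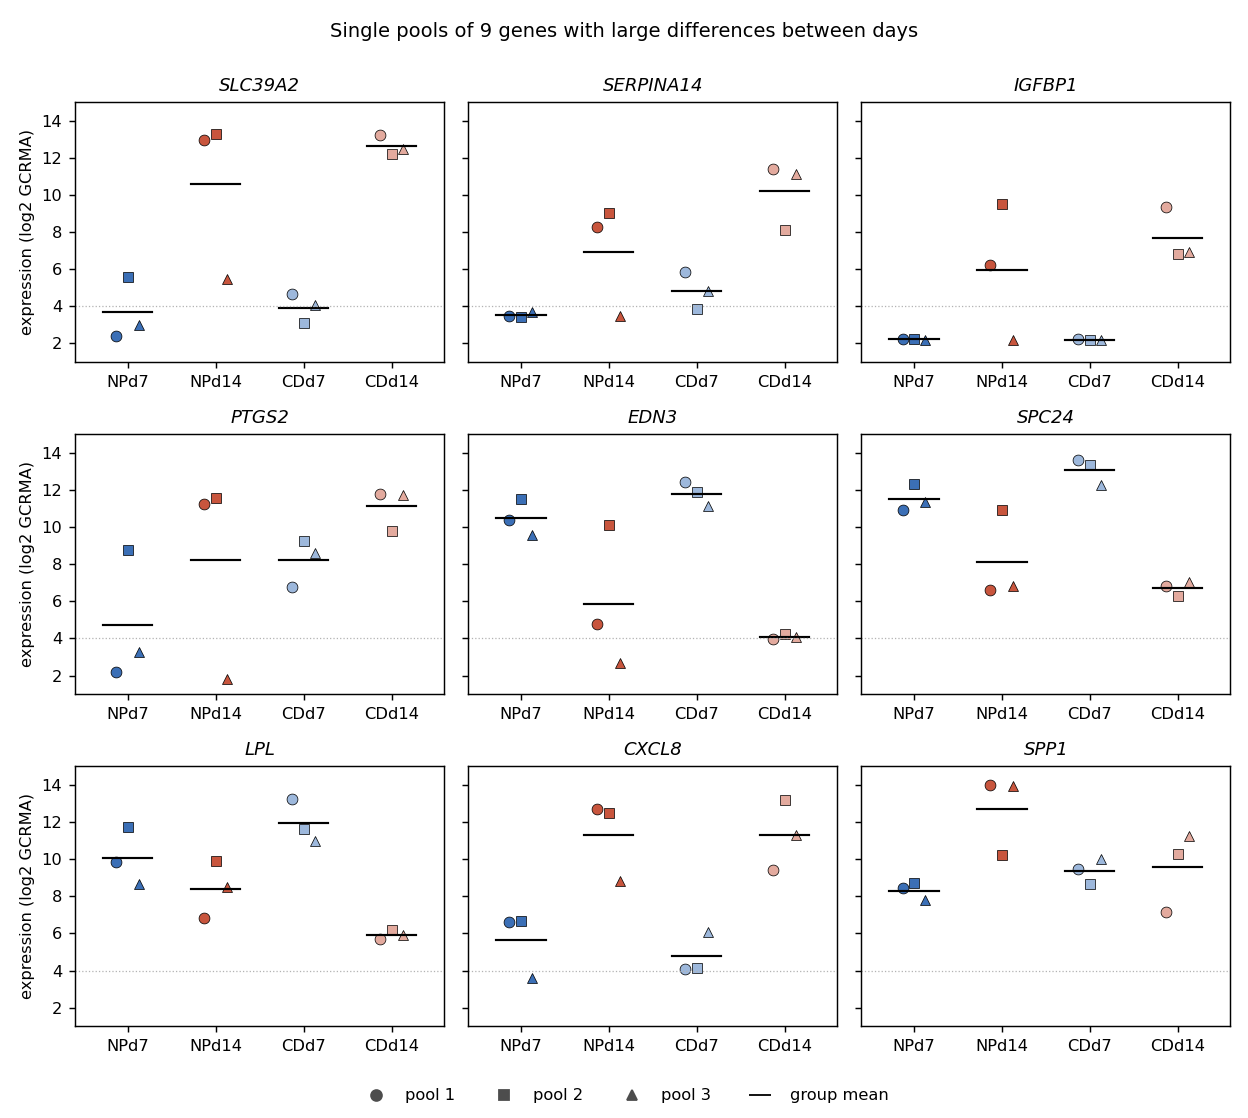
Log2 GCRMA expression of 9 genes in the 3 pools of each of the 4 groups, with marker shape for the pool, a line for the group mean and a dotted line at the filter level of 4. In SLC39A2, SERPINA14 and IGFBP1 the NPd14 triangle (pool 3) lies within the range of the NPd7 pools, and in PTGS2 below it. In SLC39A2 it lies near the NPd7 square and above the NPd7 triangle. In EDN3 and SPC24 the NPd14 square (pool 2) lies within the range of the NPd7 pools but below the NPd7 square. In CXCL8 and SPP1 all 3 NPd14 pools lie above all 3 NPd7 pools.

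Leaving out either pool also changed the number of probe sets that passed. Without NPd14 pool 2, 155 passed (78 up, 77 down), and without NPd14 pool 3, 172 passed (160 up, 12 down). The 2 sets shared 41 probe sets, 26.5% of the former and 23.8% of the latter. Without NPd14 pool 1, 9 passed. Without NPd7 pool 1, 2 or 3 the counts were 1, 22 and 13. Of the genes that passed without pool 2, 18 rose and 45 fell, among the latter the matrix genes SPARC (−3.61), DCN (−4.08) and LUM (−3.02). Of the genes that passed without pool 3, 57 rose and 8 fell, among the former the glucose transporter SLC2A1 (3.13), the lipoprotein receptor VLDLR (4.54) and the hypoxia-regulated factor EPAS1 (2.74). These genes were named after their values were seen.

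The layout held over the genes with the largest day effect in the CD heifers. The CD arrays are separate from the NP arrays. The choice of genes was not, since the NP arrays entered the filter, the choice of probe set and the estimate of the spread. In CD, 669 genes rose (9.87%) and 964 fell (14.2%) at a limma adjusted p under 0.05, of which 27 rose and 66 fell by more than 8-fold. Each NP pool was read against the midpoint between the CDd7 and CDd14 means of every such gene. Of the 27 genes that rose in CD, NPd14 pools 1, 2 and 3 lay above the midpoint in 22, 26 and 8, and NPd7 pools 1, 2 and 3 in 4, 3 and 6. Pool 3 of day 14 was thus nearer to the NPd7 pools than to the other two. Of the 66 genes that fell in CD, NPd14 pools 1, 2 and 3 lay below the midpoint in 66, 33 and 64. The NPd7 pools lay below it in 44, 5 and 51, so for the genes that fell in CD, NPd7 pools 1 and 3 were mostly already past the midpoint at day 7. The median day effect of the 27 genes was 2.38 in NP beside 3.81 in CD, and that of the 66 genes was −1.55 in NP beside −3.90 in CD. The CD values were used to choose these genes, so the larger size in CD is not a result.

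**Figure D3:**
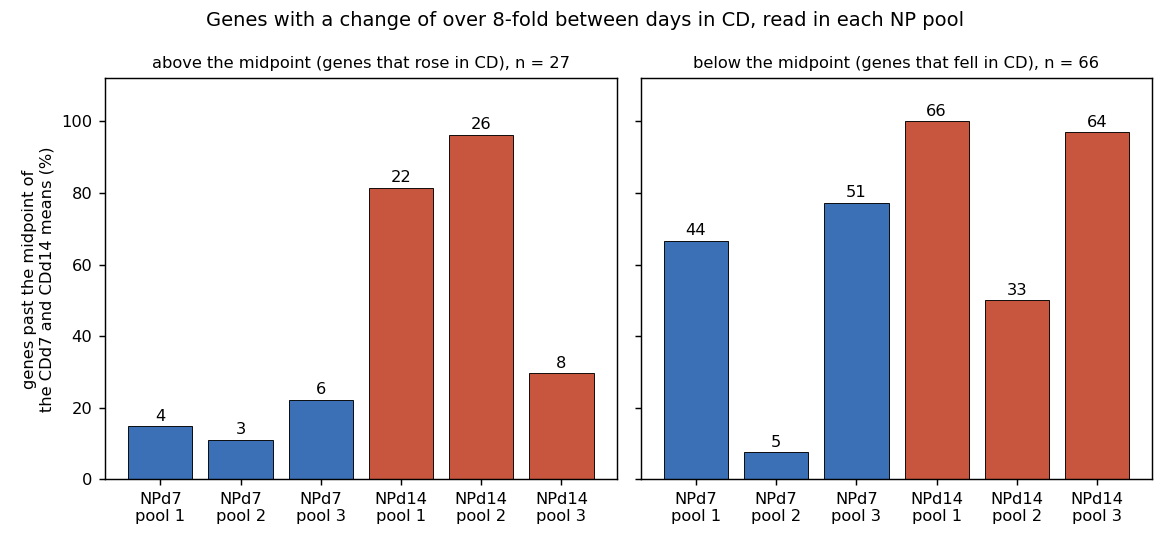
Share of genes past the midpoint of the CDd7 and CDd14 means in each NP pool, for the 27 genes that rose and the 66 genes that fell by more than 8-fold in CD, with the number of genes above each bar (blue NPd7, red NPd14). NPd14 pool 3 reaches 8 of 27 on the left, and NPd14 pool 2 reaches 33 of 66 on the right.

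Some genes were higher in all 3 NPd14 pools than in all 3 NPd7 pools, with a large difference and a wide spread. Over all genes this held for 497 (7.33%), and the opposite for 1035 (15.3%). CXCL8, the chemokine that draws in neutrophils, stood at 6.59, 6.69 and 3.59 at day 7 and at 12.68, 12.46 and 8.83 at day 14 (5.70 ± 1.29, limma adjusted p = 0.104). SPP1, osteopontin, a secreted protein that binds integrins, stood at 8.43, 8.72 and 7.77 at day 7 and at 13.97, 10.22 and 13.93 at day 14. Its difference was 4.40 ± 1.14 (limma adjusted p = 0.135), and without NPd14 pool 2, the lowest, it was 5.65 (limma adjusted p = 0.0402). Without pool 1 or pool 3 it was 3.77 and 3.79 (limma adjusted p = 0.334 and 0.203). CCL2, a chemokine for monocytes named after its values were seen, stood at 3.01, 3.0 and 2.88 and then at 8.10, 6.78 and 4.80 (3.60 ± 0.90, limma adjusted p = 0.123).

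DEFB4A, a beta-defensin, stood at 3.29, 5.17 and 3.52 at day 7 and at 8.78, 6.89 and 9.74 at day 14 (4.48 ± 0.93, limma adjusted p = 0.0803). EBD, the enteric beta-defensin, stood at 4.28, 4.34 and 3.50 and then at 7.36, 7.22 and 7.90 (3.46 ± 1.14, limma adjusted p = 0.197). Bovine beta-defensins form a family of near-identical genes, so which member these probe sets read is uncertain. MET, the receptor of hepatocyte growth factor, stood at 6.38, 6.07 and 5.92 and then at 8.15, 8.74 and 7.29 (1.94 ± 0.41, limma adjusted p = 0.0825).

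Gene groups were read by their counts and by the median of the day effect, beside a median of −0.06 over all 6781 genes. Counts of members whose days did not overlap stand beside 7.33% upward and 15.3% downward over all genes, and a share near these is no result about a list. With the 3' to 5' score as covariate the medians of the lists below moved by over 1.5 times for cell cycle (0.67 with the score), interferon-stimulated (0.33), immediate early (0.13), ribosomal (−0.19) and epithelial genes (0.19), turned to −0.07 for the steroid list, and also moved for the ciliated and inflammation lists. In the lists described here SLC7A1 was the single gene that passed. A bulk biopsy cannot tell fewer cells of a type from less RNA per cell, which touches every cell-type list below. Of 8 measured markers of ciliated epithelial cells, all 8 had a lower mean at day 14, 7 had no overlap between the days, and the median was −2.17. TEKT1, a tektin of ciliary microtubules, stood at 9.08, 8.55 and 8.92 at day 7 and at 6.87, 7.81 and 5.26 at day 14 (−2.20 ± 0.67, limma adjusted p = 0.171). SPAG6, an axoneme protein, stood at 8.84, 7.93 and 8.26 and then at 6.38, 7.12 and 4.59 (−2.32 ± 0.72, limma adjusted p = 0.176). Pool 3 of day 14 was the lowest for both. With the 3' to 5' score as covariate the median of the list was −0.47 and TEKT1 and SPAG6 were at −0.73 and −0.76, so the score moved with the list. The summed level of the 8 markers lay between 12.2 and 12.7 in NPd7 and between 9.58 and 11.7 in NPd14. The median day effect in CD was −1.05, and no member passed the test of the difference between NP and CD (smallest limma adjusted p 0.495).

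Stromal fibroblast markers mostly had lower means at day 14. Of 16 measured, 12 had a lower mean, 6 had no overlap downward and 1 upward, and the median was −1.32. COL6A1, a collagen VI chain, stood at 5.83, 4.79 and 6.92 at day 7 and at 2.18, 3.02 and 2.65 at day 14 (−3.23 ± 0.56, limma adjusted p = 0.0518). COL6A1 was above the filter level on the 3 NPd7 arrays and on no other array, so it was tested only through the group where it was high. COL1A2, a collagen I chain named after its values were seen, stood at 11.39, 9.88 and 12.09 and then at 7.99, 9.75 and 8.75 (−2.29 ± 0.66, limma adjusted p = 0.161). LUM, the proteoglycan lumican, stood at 8.02, 7.60 and 9.16 and then at 5.20, 7.59 and 5.27, and NPd14 pool 2 was level with NPd7 pool 2. MMP2, a matrix protease from the list of matrix turnover, stood at 7.50, 6.71 and 8.05 and then at 4.69, 5.90 and 4.59 (−2.36 ± 0.43, limma adjusted p = 0.0614). Without NPd14 pool 2 the adjusted p was 0.0459 for COL6A1, 0.0178 for LUM and 0.02 for MMP2, and without pool 1 or pool 3 none of them passed (0.055 to 0.35). The summed level of the 16 markers was 14.1 to 14.9 in NPd7 and 13.7 to 13.8 in NPd14, beside 13.2 to 13.5 in CDd7. NPd7 thus held the highest values of the study, and what part cell content had in this was not tested.

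The epithelial list had similar levels on both days. Its 19 measured genes had a median of 0.08, with 1 without overlap upward and 2 downward. CDH1, the adhesion protein E-cadherin, stood at 11.35, 11.48 and 11.42 and then at 12.08, 11.95 and 12.07 (0.62 ± 0.13, limma adjusted p = 0.0803). A dimmer probe set of CDH1 gave 0.13 (limma adjusted p = 0.744). KRT18, a keratin of simple epithelia, stood at 11.65, 11.39 and 11.71 and then at 11.17, 11.16 and 10.92 (−0.50 ± 0.16, limma adjusted p = 0.179). The summed level of the list was 16.4 on every NPd7 array and 16.4 to 16.5 in NPd14.

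Interferon-stimulated genes mostly had higher means at day 14. Of 32 measured, 27 had a higher mean, 10 had no overlap upward and 1 downward, and the median was 0.50. MX1, an antiviral GTPase, stood at 8.20, 8.07 and 8.31 at day 7 and at 9.54, 9.47 and 9.20 at day 14 (1.21 ± 0.29, limma adjusted p = 0.116). ISG15, a ubiquitin-like protein, stood at 5.45, 5.90 and 5.21 and then at 9.13, 7.37 and 6.87 (2.27 ± 0.64, limma adjusted p = 0.158). The median in CD was 0.75, and the difference between the outcomes passed for no member (smallest limma adjusted p 0.301).

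The list of neutrophil and inflammation genes had a median of 1.17, and of its 27 measured genes 7 had no overlap upward and none downward. IL1RN, the antagonist of the interleukin 1 receptor, stood at 8.25, 8.35 and 8.70 and then at 12.16, 10.28 and 10.11 (2.42 ± 0.59, limma adjusted p = 0.119). TLR2, a receptor for bacterial lipoproteins, stood at 7.24, 7.84 and 7.31 and then at 9.83, 9.66 and 8.18 (1.76 ± 0.40, limma adjusted p = 0.104). CXCR1, the neutrophil receptor of CXCL8, also named after its values were seen, stood at 2.05, 2.04 and 2.01 and then at 9.36, 7.19 and 2.03, and so differed widely between the day 14 pools. Without NPd14 pool 3, TLR2 and CXCL8 had limma adjusted p of 0.00691 and 0.0335, without pool 1 0.284 and 0.289, and without pool 2 0.115 and 0.114. With the 3' to 5' score as covariate the median of the list was 0.74. Over the whole list the mean deviation from the 12-array mean was 1.83, 1.09 and 0.06 in NPd14 pools 1, 2 and 3 and −0.41, −0.68 and −0.41 in NPd7.

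Immediate early genes, which respond to stimuli within minutes, had a higher mean in 15 of 18, with a median of 0.25 and 3 without overlap upward. FOS, a subunit of the AP-1 transcription factor, stood at 9.75, 9.06 and 9.39 and then at 10.68, 10.52 and 10.67 (1.22 ± 0.23, limma adjusted p = 0.0658). ATF3, another factor of this class, stood at 5.78, 5.41 and 6.31 and then at 8.45, 8.49 and 6.73 (2.06 ± 0.48, limma adjusted p = 0.108).

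Genes of energy metabolism and redox defence had slightly lower means at day 14. Of 73 measured subunits of oxidative phosphorylation, 71 had a lower mean at day 14, 25 had no overlap downward and none upward, and the median was −0.29. ATP5F1D, a subunit of ATP synthase, stood at 10.12, 10.07 and 9.95 and then at 9.51, 9.51 and 9.53 (−0.53 ± 0.12, limma adjusted p = 0.108). Of 30 glutathione and peroxide genes, 9 had no overlap downward and none upward, with a median of −0.16, and 9 of 30 stands beside the 15.3% of all genes. PRDX6, a peroxiredoxin, stood at 12.72, 12.64 and 12.62 and then at 12.08, 11.91 and 12.17 (−0.61 ± 0.11, limma adjusted p = 0.0546). Dimmer probe sets of PRDX6 gave −0.90 and −0.18 (limma adjusted p = 0.0803 and 0.502). Of 60 cytosolic ribosomal protein genes, 53 had a lower mean, with a median of −0.09 close to that of all genes.

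The cell cycle list was split. Of 48 measured genes 37 had a higher mean at day 14, 14 had no overlap upward and 2 downward, and the median was 0.43, while SPC24 and CCNB1 above were among those with a lower mean. The mean deviation of the list was −0.66, −0.15 and −0.47 in NPd7 and −0.18, −0.20 and 0.16 in NPd14. In CD the median was −0.50, and there CDd7 pools 2 and 3 held the highest values of the study, at 1.33 and 1.08.

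The transporter and secretion lists were mixed. Of 11 amino acid transporters, SLC7A1 rose, 7 had a higher mean, and the median was 0.22. SLC1A5, the glutamine transporter ASCT2, stood at 9.90, 9.75 and 10.29 and then at 10.61, 10.77 and 10.90 (0.78 ± 0.15, limma adjusted p = 0.0731). Of 18 transporters of glucose, zinc and other solutes, none had values without overlap, with differences from −2.26 to 6.90. Of 24 histotroph genes, 5 had no overlap upward and none downward, with a median of 0.55, and the mean deviation of the list was 0.30, 0.97 and −0.77 in NPd14 pools 1, 2 and 3. The prostaglandin and oxytocin list had a median of −0.17 over 13 genes, and the steroid list 0.13 over 13.

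**Figure D4:**
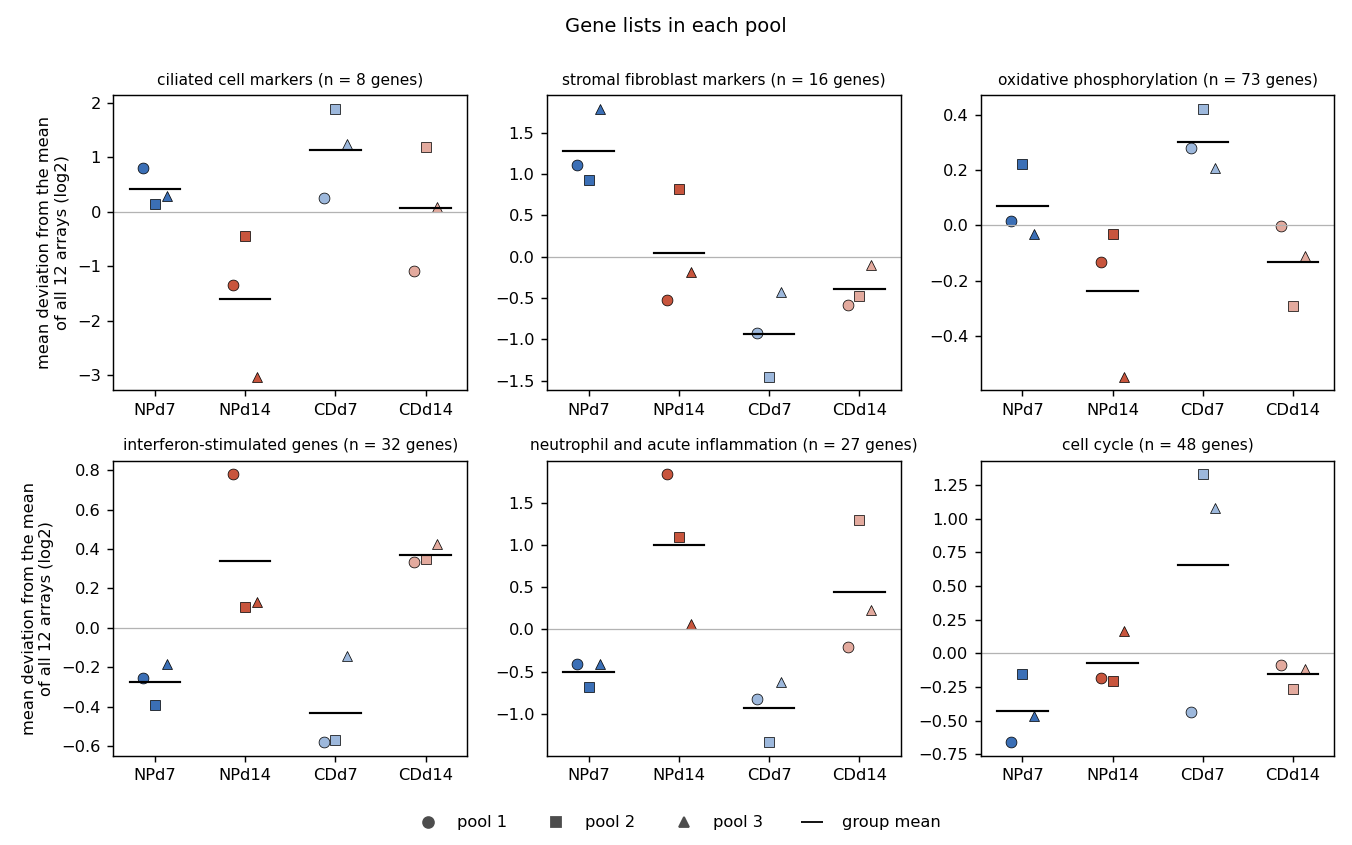
Mean deviation from the mean of all 12 arrays (log2), averaged over the measured genes of 6 lists, for every pool of the 4 groups, with marker shape for the pool and a line for the group mean. The scales differ between panels. Ciliated, stromal and oxidative phosphorylation genes have lower means in NPd14 than in NPd7, and interferon-stimulated, inflammation and cell cycle genes have higher means.

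The day effect in NP was set beside that in CD to ask whether it depended on the later outcome. In CD 3231 probe sets (24%) passed, against 44 in NP, and the median size of the difference over genes was 0.353 in CD and 0.213 in NP. A difference of more than 1 was reached by 406 genes in NP, 191 up and 215 down, and by 1024 in CD. Of the 44 probe sets, 33 also passed in CD in the same direction. Both tests use the same estimate of the spread for a probe set, so passing in both is not independent. In 39 of the 44 the CD pools had no overlap in that direction, where 24.9% of all probe sets had this upward and 19.9% downward. By gene, CD pools did not overlap upward in 22.1% and downward in 22.8%. The difference between the day effects was tested directly, and no probe set passed in limma, with 1900 (14.1%) at an unadjusted p under 0.05 and a smallest adjusted p of 0.191. Without NPd7 pool 2, 53 passed, and without CDd7 pool 1, CDd7 pool 3 or CDd14 pool 2, 22, 5 and 3 passed, so the count depends on single pools. With the pool number as a block within each outcome, which uses all 12 arrays, 28 passed. The larger count in CD is thus not shown to be a larger effect.

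Among the genes named here the largest differences between the outcomes were those of LPL, SPP1 and PRODH. The day effect of LPL was −1.68 in NP and −6.03 in CD, a difference of 4.35 ± 1.28 (limma adjusted p = 0.263). That of PRODH was −2.20 and −6.30, a difference of 4.10 ± 1.08 (limma adjusted p = 0.244). SPP1 was at 4.40 in NP and 0.18 in CD, a difference of 4.22 ± 1.62 (limma adjusted p = 0.311), and its CD pools overlapped, with the lowest at 8.66 at day 7 and at 7.15 at day 14. COL6A1 gave −3.23 in NP and 0.01 in CD (−3.24 ± 0.80, limma adjusted p = 0.244), with CD pools at 1.22 to 3.24 on both days, and here too the filter kept COL6A1 only through NPd7. ID1, an inhibitor of helix-loop-helix factors and target of BMP signalling, stood at 8.67, 8.85 and 8.29 in NPd7 and at 10.49, 9.35 and 10.71 in NPd14, a difference of 1.58 beside −1.07 in CD (2.65 ± 0.58, limma adjusted p = 0.23). None of these differences passed.

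**Figure D5:**
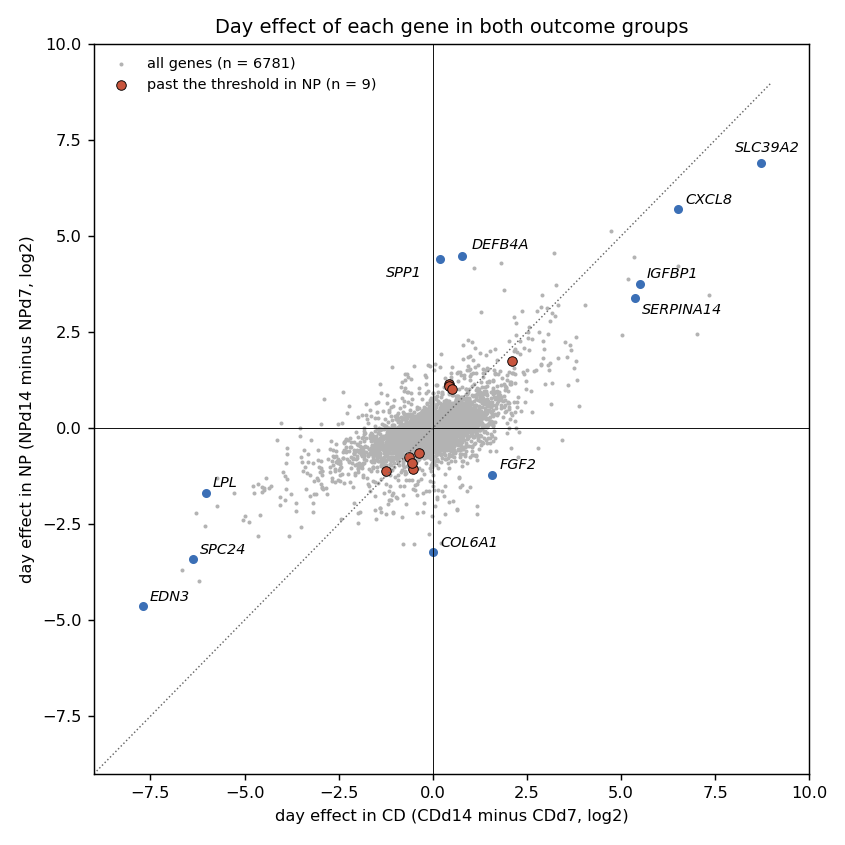
Day effect in NP (NPd14 minus NPd7, log2) against that in CD (CDd14 minus CDd7, log2) for all 6781 genes in grey, with the 9 genes past the threshold in NP in red, 11 named genes in blue and equality as a dotted line. SLC39A2, EDN3 and SPC24 lie far from 0 in both, while SPP1, DEFB4A and COL6A1 lie far from 0 in NP and between 0.01 and 0.78 in CD.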

How the data were processed

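RNA of pooled endometrial biopsies was labelled and hybridised to Affymetrix bovine arrays, per the labels' protocols. The authors deposited log2 values, and GCRMA and limma are named per the submitters' processing notes. Group and pool number came from the sample titles, where 2 CDd14 titles share a name and were told apart by their replicate number. Here, 112 control probe sets were left out, probe sets above 4 on at least 3 of 12 arrays were kept, and a gene was read by its probe set with the highest mean over 12 arrays. Symbols came from the platform annotation: 8239 kept probe sets had 1 symbol, 59 several and 5151 were not listed. The 4 group means were fitted with limma 3.58.1 in R 4.3.3 with 8 residual degrees of freedom, contrasts were two-sided, and p-values were adjusted over 13449 probe sets. The fit was tested on simulated data. Deviations of same-numbered NP pools from their group means correlated at 0.161, 0.619 and 0.507, so the numbers were taken to pair the NP pools, although the labels do not state it. NP pools of unlike number correlated at −0.545 to 0.186. The highest of these, for NPd7 pool 1 with NPd14 pool 3, exceeded the value for pool 1 with its own number. Deviations within a group are tied to each other, so these values are not independent. In CD the same-numbered pools gave 0.242, −0.0705 and 0.23. The number of arrays limits the precision. The members and gene lists were chosen with earlier results of these data known. Named genes were those that passed, up to 3 others by p from each list, a set of uterine genes, the genes nearest to passing where fewer than 5 passed in a direction, those that passed with the smallest p for the difference from CD, and a few chosen after their values were seen. For length, not every gene of this rule is named.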

Additional observations from a re-analysis of the deposited data

Results flagged for a closer look

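In 4 named genes every NP pool moved between the days against every CD pool. FGF2, a fibroblast growth factor, stood at 7.80, 6.98 and 8.0 in NPd7 and at 6.58, 6.57 and 5.98 in NPd14, while in CD it stood at 5.40, 6.22 and 6.61 and then at 7.47, 7.98 and 7.53. The day effect differed by −2.80 ± 0.49 (limma adjusted p = 0.192). CD8B, a chain of the T cell coreceptor, stood at 4.67, 4.45 and 5.30 and then at 3.89, 3.61 and 4.17 in NP, with a difference between the outcomes of −1.31 (limma adjusted p = 0.244). CD8B passed the filter on low values only through the NPd7 arrays. RPS9, a ribosomal protein, differed by −0.62 (limma adjusted p = 0.244), and IDH3G, a subunit of the citric acid cycle enzyme isocitrate dehydrogenase, by −0.60 (limma adjusted p = 0.29). None of these differences passed the test. Such opposite movement without overlap was seen in 36 of 6781 genes, 31 of them lower at day 14 in NP and higher in CD, and 5 the other way.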

How the results depend on the processing

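The count of 44 probe sets for the NP day effect became 42 with no filter, 9 with a stricter filter, 17 with a trended and robust variance, 32 after quantile normalization, 2 with probe sets averaged by gene, 1 with 1 probe set per gene, 0 with the 3' to 5' score as covariate and 0 with only the NP arrays. Of the 42 with no filter, only 25 were among the 44. With the replicate block it was 21, with a block within each outcome 0, and with the block over only the NP arrays 0, the last 2 added after seeing the data. Leaving out single pools gave 1 to 172. The count of 0 for the difference from CD became 28 with the replicate block within each outcome, 1 with no filter and 0 to 53 on leaving out single pools, and stayed 0 in the other fits. Directions turned for RIOK3 (0.58 with probe sets averaged by gene, −0.33 to 0.051 on leaving out single pools), OXTR (0.18 with the score as covariate, −0.68 to 0.10) and HSD11B1 (−0.17 to 2.38). The cause was not tested. Of 78 genes followed through up to 23 other settings, direction and side of the threshold were kept in 1587 cases. The threshold was lost in 158 and gained in 39. Most of the 78 had not passed, and the fits without a CD pool, with a block or with only NP arrays cannot change the NP difference. The 1587 is therefore no measure of stability. Of the 9 genes that passed, LARS2 and CDK5 passed in 2 of these settings, GPALPP1 in 17 of 22 and the others in 4 or 5.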

Other observations

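Probe sets whose identifiers end in A1 were 26 of the 44 that passed (59.1%), against 31.5% of all probe sets kept. Among the 29 without a gene name 22 end this way, where 42.3% of all unnamed probe sets kept do. The labels do not explain the suffix.

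Some further genes of the lists, not described above, had NP pools without overlap. AXIN2, a feedback inhibitor of Wnt signalling, stood at 7.48, 6.93 and 7.57 in NPd7 and at 5.83, 6.36 and 5.98 in NPd14 (−1.27 ± 0.32, limma adjusted p = 0.123), beside −1.01 in CD. IFI27, an interferon-induced mitochondrial protein, stood at 7.01, 6.29 and 7.69 and then at 9.74, 8.19 and 10.54 (2.50 ± 0.63, limma adjusted p = 0.123), and gave 1.01 with the 3' to 5' score as covariate (limma adjusted p = 0.73). EGR1, an immediate early transcription factor, stood at 7.67, 6.87 and 6.98 and then at 9.09, 8.80 and 8.24 (1.54 ± 0.41, limma adjusted p = 0.141).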
